A study of Mus musculus with 6 samples.

Results

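Plagl1 and the genes usually grouped with it as the imprinted gene network were examined in c-Kit+ bone marrow cells of the mouse. Imprinted genes are transcribed mainly from the copy inherited from either the mother or the father, under the control of DNA methylation set in the germ line, and many of them act on fetal growth. Plagl1 encodes a zinc finger transcription factor that restrains cell division and is known to bind at several other imprinted genes, Igf2 and H19 among them. In blood formation, imprinted growth regulators are best known from stem cells, where several are more highly expressed than in dividing progenitors. The 10 genes were named by symbol, and the set was selected on the log2 difference of Plagl1 between these groups, already known to be among the greatest. Their values are therefore a description, and where the fit across all genes also called a member, the call is counted but supports nothing. Of the 10, 6 had a row in the deposited files: Plagl1, Dlk1, Mest and Ndn, which are expressed from the paternal copy, and Igf2r and Grb10, which are expressed mainly from the maternal copy. Igf2, H19, Meg3 and Peg3 were not among the 20097 genes listed there and are not analysed here. The lowest total of a listed gene was 10 reads over the 6 libraries.

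The libraries were made from poly-A RNA of cells selected for the receptor encoded by Kit, which marks blood stem and progenitor cells. Of the 6 libraries, 3 were of genotype WT and 3 of genotype Runx1 KO, Runx1 being a transcription factor gene needed for blood formation. The sources used here do not give the age or sex of the animals or the way in which Runx1 was disrupted, and nothing states whether replicates came from separate animals, so the spread between them may be technical. Values are normalised read counts, which are reads per gene after scaling by each library's size factor, so that 1 read equals 0.959 to 1.05 normalised reads.

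The libraries held between 23297526 and 26793380 reads, and 15410 genes passed the filter on low values and were tested. Kit, Cd34 and Ptprc, listed as markers of the sorted cells, were present in every library. Of these 3, 2 were called higher under Runx1 KO and 0 lower. Their summed level was 26049 to 32201 under WT and 29379 to 33456 under Runx1 KO. Runx1 itself was not lower under the label Runx1 KO, where it had 5829.9 to 6720.3 normalised reads against 2799 to 3497 under WT, so the groups are called by their labels and every direction runs from WT to Runx1 KO. Gene totals cannot show whether an exon was missing. Markers of other cells differed between the libraries. The summed level of 12 stem cell markers was 3397 to 4502 under WT and 7021 to 8108 under Runx1 KO, with 9 called higher and none of the 12 lower. The summed level of the 7 listed stromal markers of 10 was 1190.4 to 1425 against 477 to 626, with 5 called lower, and Pdgfra, Col3a1 and Lum were not listed. The summed level of 6 B-lymphoid markers was 22616 in WT replicate 1, 5514 and 9230 in the other WT libraries and 934 to 2384 under Runx1 KO. Neutrophil marker sums were 218818 to 257180 under WT and 142507 to 170828 under Runx1 KO, with 5 of 7 called lower, and those of mast cells and basophils 8695 to 10927 and 6383 to 8424, with 4 of 6 lower and 1 higher. The sums of endothelial and megakaryocyte markers overlapped between the groups, with 3 of 7 and 3 of 5 tested markers called higher. Those of erythroid, monocyte and T-lymphoid markers overlapped too, with 2 of 8, 1 of 6 and 0 of 6 called lower and none higher. Of all tested genes 10.6% were called higher and 11.3% lower. In bulk libraries a change in the share of a cell type and a change of RNA per cell cannot be told apart, and the part of these shifts in the results below was not tested.

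Promoter windows of the members were taken from RefSeq (GRCm38.p6), each 300 bases long with 250 bases before and 50 after an annotated start, and 9 of the 10 members had at least 1 window. The Plagl1 window is shown because that gene differed most, and the Ndn, Dlk1 and Grb10 windows because these genes were also called; Grb10 had 2 windows, of which the one richer in CpG is printed. In the first 3 the capitals mark CpG dinucleotides, the site of the methylation by which imprints are kept. In the Dlk1 window the capitals mark the core letters of the RUNX binding motif.
Plagl1, chr10:13090582-13090881, plus strand: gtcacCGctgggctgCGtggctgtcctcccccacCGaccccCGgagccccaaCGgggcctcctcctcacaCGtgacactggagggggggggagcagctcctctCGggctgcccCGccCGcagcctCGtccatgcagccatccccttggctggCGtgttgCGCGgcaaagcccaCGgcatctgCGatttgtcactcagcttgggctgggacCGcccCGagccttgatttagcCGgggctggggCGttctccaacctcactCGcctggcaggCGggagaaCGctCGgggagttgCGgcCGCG
Grb10, chr11:12037371-12037670, minus strand: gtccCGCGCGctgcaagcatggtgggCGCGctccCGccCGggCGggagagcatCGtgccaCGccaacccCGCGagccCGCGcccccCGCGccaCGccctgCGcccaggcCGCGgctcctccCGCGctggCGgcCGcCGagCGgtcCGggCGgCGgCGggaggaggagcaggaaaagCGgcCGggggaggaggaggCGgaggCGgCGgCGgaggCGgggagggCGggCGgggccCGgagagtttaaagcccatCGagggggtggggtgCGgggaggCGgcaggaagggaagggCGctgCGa
Ndn, chr7:62348027-62348326, plus strand: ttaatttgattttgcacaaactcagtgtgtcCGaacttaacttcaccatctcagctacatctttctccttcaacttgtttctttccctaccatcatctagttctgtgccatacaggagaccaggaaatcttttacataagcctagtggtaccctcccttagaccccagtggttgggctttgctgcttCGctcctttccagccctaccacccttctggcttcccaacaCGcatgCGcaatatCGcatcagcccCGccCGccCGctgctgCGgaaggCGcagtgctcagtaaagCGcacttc
Dlk1, chr12:109452573-109452872, plus strand: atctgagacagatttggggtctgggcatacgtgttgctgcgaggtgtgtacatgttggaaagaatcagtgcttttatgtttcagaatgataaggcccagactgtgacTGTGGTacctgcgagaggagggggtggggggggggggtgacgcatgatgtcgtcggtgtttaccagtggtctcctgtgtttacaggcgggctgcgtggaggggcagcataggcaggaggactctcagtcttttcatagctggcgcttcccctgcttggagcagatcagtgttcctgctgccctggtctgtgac
The Plagl1 window lay inside the annotated gene, held 26 CpG dinucleotides and had a GC content of 70.7%. The printed Grb10 window held 45 and had a GC content of 80%, the other Grb10 window (chr11:12027922-12028221) held 9 and had 52.3%, the Ndn window held 11, and the median over 32851 windows of the table was 7. No methylation was measured in these libraries. The letters TGTGGT, searched on both strands, occurred in the windows of 2 of the 9 members, Dlk1 (143 bases before the start, as printed) and Meg3, and in those of 18.9% of all 27025 genes of the table. By window they occurred in 2 of the 16 member windows and 16.8% of all windows. They did not occur in the windows of Plagl1, Grb10 or Ndn, which says only that these letters are not in these windows.

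Plagl1 (ENSMUSG00000019817; chromosome 10, 13060504 to 13131694, plus strand, protein coding, GENCODE M21 on GRCm38) was the member with the greatest difference between the groups. It had 15.8, 30.3 and 20.1 normalised reads in WT replicates 1 to 3 and 246, 254 and 293 in Runx1 KO replicates 1 to 3. All libraries labelled Runx1 KO lay far above all libraries labelled WT, and the 3 high values lay close together. The means were 22.1 ± 7.41 and 264 ± 25.5 (SD, n = 3), a 12-fold difference, and the log2 difference was 3.57 (SE 0.25) on the log2(value + 1) scale, rank 9 from the top among 15410 genes. Per kilobase of exon, its level moved from percentile 2.24 to percentile 25.1 of the tested genes, so that it stood in the lower part of the range in both groups. The stem cell marker sums given above are higher in the same libraries, and their part in the difference was not tested. Its log2 difference lay between 3.36 and 3.81 when any 1 library was left out.

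Dlk1, which encodes a membrane protein related to the Notch ligands and lies at the start of the imprinted domain of chromosome 12 (109452823 to 109463336, plus strand), was measured close to the detection limit. It had 3.96, 5.05 and 2.88 normalised reads under WT and 12.6, 11.9 and 9.95 under Runx1 KO. The groups did not overlap, but the highest library held only 12 reads. The means were 3.96 ± 1.08 and 11.5 ± 1.36 (SD, n = 3), and the log2 difference was 1.35 (SE 0.32). With a pseudocount of 5 in place of 1 the log2 difference of Dlk1 was 0.88. Dlk1 entered the tested genes only through its level under Runx1 KO.

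Ndn, which encodes necdin, a growth suppressor of the MAGE family (chromosome 7, 62346569 to 62350262, plus strand), differed the other way. It had 14.8, 21.2 and 23.0 normalised reads under WT and 1.05, 2.97 and 5.97 under Runx1 KO, where the libraries held 1, 3 and 6 reads. The groups did not overlap. The means were 19.7 ± 4.29 and 3.33 ± 2.48 (SD, n = 3), and the log2 difference was -2.41 (SE 0.49), or -1.59 with a pseudocount of 5. Ndn entered the tested genes only through its level under WT. The non-coding Gm32061, transcribed from the other strand, spans it and was not listed. The stromal, B-lymphoid, neutrophil, and mast cell and basophil marker sums given above are all lower in the same libraries. In both groups Ndn was highest in replicate 3, where the stromal sum was lowest. The part of these cells in the difference was not tested.

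Mest, which encodes a protein of the alpha/beta hydrolase fold family (chromosome 6, 30723547 to 30748465, plus strand), had 43.5, 26.2 and 42.2 normalised reads under WT and 23.0, 16.8 and 22.9 under Runx1 KO. The lowest WT library stood only slightly above the highest Runx1 KO library. The log2 difference was -0.79 (SE 0.28). Copg2, a coat protein gene transcribed from the other strand, overlaps its end by 912 bases, and as the use of strand in counting is not stated in the sources used here, reads there cannot be assigned to either gene with certainty.

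Grb10 and Igf2r act on the same pathway at different points. Grb10 encodes an adaptor that binds the activated insulin and IGF1 receptors and dampens their signal, and Igf2r encodes a receptor that takes up IGF2 for breakdown and carries lysosomal enzymes. Grb10 (chromosome 11, 11930508 to 12038683, minus strand) had 924, 1238 and 1772 normalised reads under WT and 1954, 2201 and 3052 under Runx1 KO. Replicate 3 was the highest in both groups, and the groups did not overlap. Its means were 1311 ± 429 and 2402 ± 576 (SD, n = 3), with a log2 difference of 0.90 (SE 0.25). Igf2r (chromosome 17, 12682406 to 12769664, minus strand) had 1434, 2109.9 and 1660.4 normalised reads under WT and 905, 1074 and 1457 under Runx1 KO. The groups overlapped, as the highest library labelled Runx1 KO exceeded the lowest labelled WT. The log2 difference of Igf2r was -0.61 (SE 0.20). The antisense RNA Airn, which overlaps Igf2r, held at most 5 reads in a library.

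**Figure D1:**
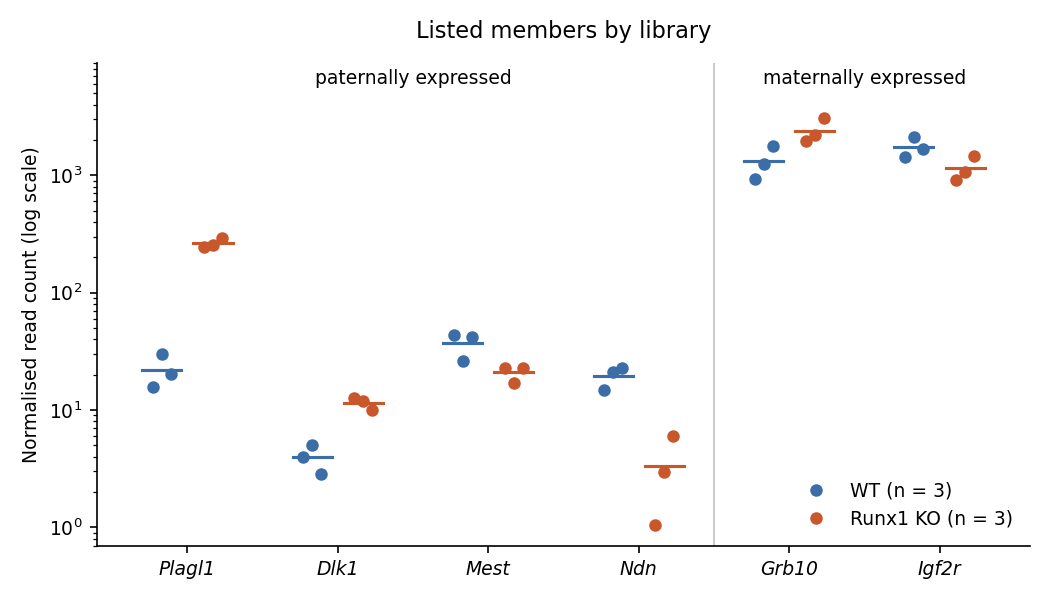
Normalised read count on a log axis of the 6 members with a row in the files, for 3 WT and 3 Runx1 KO libraries; each point is a library and each line a group mean. Plagl1 sits between 15.8 and 30.3 under WT and between 246 and 293 under Runx1 KO, whereas the values of Igf2r overlap between the groups.

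Per kilobase of exon, the members spanned a wide range of levels. Under WT the order was Igf2r (186 ± 36.9 normalised reads per kilobase, SD, n = 3), Grb10 (144 ± 47.2), Mest (9.46 ± 2.44), Ndn (5.33 ± 1.16), Plagl1 (2.82 ± 0.95) and Dlk1 (0.70 ± 0.19). The WT libraries of Igf2r and Grb10 overlapped, and those of the other neighbours in this order did not. Under Runx1 KO the order was Grb10 (264 ± 63.4), Igf2r (123 ± 30.4), Plagl1 (33.8 ± 3.26), Mest (5.30 ± 0.89), Dlk1 (2.03 ± 0.24) and Ndn (0.90 ± 0.67), with no overlap between neighbours. Plagl1 thus moved from the fifth to the third place, and Grb10 and Igf2r exchanged places.

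In the fit across all genes, limma called 3 of the 6 members higher (Plagl1, Dlk1 and Grb10) and 1 lower (Ndn) at an adjusted p under 0.05, where 10.6% of all tested genes were called higher and 11.3% lower. In 3 members all libraries labelled Runx1 KO lay above all labelled WT and in 2 they lay below, against 21.4% and 21.9% of all tested genes (43.3% in either direction). As the members were chosen with this contrast known, nothing is read from these counts. The median log2 difference of the 6 was 0.14, and that of all tested genes was -0.0042. Dlk1 and Ndn had in addition passed the filter only through the group in which they were higher. With a library left out the fit called 1 or 2 members higher, with 1 without WT replicate 1, Runx1 KO replicate 2 or Runx1 KO replicate 3. It called 0 to 2 lower, with 0 without WT replicate 2, WT replicate 3 or Runx1 KO replicate 2 and 2 without Runx1 KO replicate 3. By gene, the call of Plagl1 was kept in every alternative fit. Leaving out single libraries lost the call of Dlk1 in 5 fits, that of Grb10 in 4 and that of Ndn in 3.

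Beyond the members, 57 other imprinted genes were listed by name, of which 42 had a row and 35 were tested. Among the 35, limma called 12 higher and 1 lower under Runx1 KO and left 22 uncalled, beside 10.6% and 11.3% of all tested genes. Their median log2 change was 0.25, against -0.0042 over all tested genes. This list was chosen with earlier results of these data known, and some of its genes are close neighbours or overlap. Nothing is therefore read from its counts or its median. The 14 tested genes of paternal expression gave 6 higher and 1 lower, and the 21 of maternal expression gave 6 higher and 0 lower. At an unadjusted p under 0.05 stood 10 of the 14, 9 of the 21 and 37.7% of all tested genes. Genes listed under either parental copy were thus among those that rose, and the difference between the kinds was not tested. The copy is the one assigned in the list. No allele was measured, so whether these genes are imprinted in these cells is not known from these libraries. The part of the higher stem cell marker sums in these calls was not tested either. The calls of 8 of the 13 genes were kept in every alternative fit.

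Among these 57 genes, 8 are often counted with the network, of which 6 were listed and 4 were tested. Of the 4, 2 were called higher, Gnas and Sgce, beside 10.6% of all tested genes. As the lists were chosen with earlier results of these data known, nothing is read from this count. Gnas, which encodes the stimulatory G protein alpha subunit, rose from 210.1 ± 5.50 to 521 ± 44.4 normalised reads (SD, n = 3; log2 change 1.30, SE 0.10, limma adjusted p 0.00105). Its libraries labelled WT held 213, 204 and 214 and those labelled Runx1 KO 471, 539 and 554, with no overlap; its antisense RNA Nespas held at most 12 reads. Cdkn1c, the cell cycle inhibitor p57 that keeps stem cells quiescent, had 10.9, 14.1 and 22.1 normalised reads under WT and 31.4, 21.8 and 23.9 under Runx1 KO. The groups overlapped and it did not pass (limma adjusted p 0.153). Gatm, an enzyme of creatine synthesis, was abundant and had 5265 ± 1020 against 5441 ± 766 normalised reads (SD, n = 3; limma adjusted p 0.824). Dcn, which encodes the matrix proteoglycan decorin, and Nnat were under the filter on low values, and Dcn had 11, 9 and 3 reads under WT against 0, 1 and 0.

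The genes that rose included neighbours on a chromosome. On chromosome 6, Sgce and Peg10 lie head to head 99 bases apart and are expressed from the paternal copy, while Ppp1r9a lies 142 kb from Peg10 and is expressed from the maternal copy in some tissues. Sgce, which encodes a sarcoglycan, had 88.0, 61.6 and 84.4 normalised reads under WT and 213, 211 and 239.7 under Runx1 KO (log2 change 1.51, SE 0.18, limma adjusted p 0.00309). Peg10, a gene derived from a retrotransposon, had 36.6, 28.3 and 35.5 against 70.1, 72.3 and 113 (log2 change 1.30, SE 0.25, limma adjusted p 0.0132). Ppp1r9a, which encodes the actin-binding protein neurabin, had 386, 238 and 280.1 against 616, 745 and 798 (log2 change 1.27, SE 0.19, limma adjusted p 0.00609). In all 3 genes every library labelled Runx1 KO exceeded every library labelled WT. Asb4 and Tfpi2, in the same domain, did not follow: Asb4 held at most 8 reads in a library and Tfpi2 had 44.2 ± 14.2 against 25.5 ± 10.8 normalised reads (SD, n = 3; limma adjusted p 0.151). This domain was singled out after its values were seen.

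Listed imprinted genes that lie near the members behaved in several ways. Slc22a3, an organic cation transporter gene 175 kb from Igf2r, rose with a log2 change of 0.85 (SE 0.15, limma adjusted p 0.0106), with 952, 1067 and 1422 normalised reads under WT and 1900, 2268 and 1953 under Runx1 KO. Near Ndn, Peg12 rose from 68.4 ± 16.5 to 121 ± 16.6 normalised reads (SD, n = 3; log2 change 0.83, SE 0.22, limma adjusted p 0.0384), while Mkrn3, at 67.3 kb, had 9.46 ± 3.72 against 17.6 ± 3.51 and did not pass (limma adjusted p 0.118). Per kilobase, Ndn was the lowest of these 3 genes in every library labelled Runx1 KO. Rian, the only other listed gene of the Dlk1 domain, held between 1 and 4 reads in a library. Ascl2, a transcription factor gene of stem cells of the gut and of the placenta, lies 300 kb from Igf2 on chromosome 7. It rose from 18.7 ± 4.75 to 72.7 ± 12.4 normalised reads (SD, n = 3), with a log2 change of 1.92 (SE 0.26, limma adjusted p 0.00429). Its libraries held 14.8, 17.2 and 24.0 under WT and 74.3, 84.2 and 59.7 under Runx1 KO. Kcnq1ot1, a non-coding RNA 537 kb from Igf2, had 127 ± 14.8 against 247 ± 82.8 normalised reads (SD, n = 3) and missed the threshold at a limma adjusted p of 0.0533. Tspan32, Cd81, Tssc4, Cdkn1c, Slc22a18, Phlda2 and Nap1l4, at 338 to 847 kb from Igf2, were tested and not called. These genes were grouped by distance only.

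Elsewhere, Gab1, a docking protein of receptor signalling, rose with a log2 change of 0.94 (SE 0.12, limma adjusted p 0.00358), and the non-coding Peg13 with one of 0.86 (SE 0.15, limma adjusted p 0.00907). Peg13 lies inside Trappc9 on the same strand, so reads of the 2 genes may have been split between them. Trappc9 rose by 0.25 on the log2 scale (SE 0.07) and H13, a signal peptide peptidase, by 0.25 (SE 0.05), at a limma adjusted p of 0.0462 for Trappc9 and of 0.0183 for H13, whose same-strand neighbour Mcts2 overlaps it. Zrsr1, a splicing factor gene, rose by 0.53 (SE 0.12, limma adjusted p 0.0202), and Commd1, on the other strand, spans it. The overlaps named in this paragraph are of whole gene spans. Whether exons are shared, and so whether any reads are uncertain, was not examined. Inpp5f, a phosphoinositide phosphatase, was the 1 gene that fell, from 912 ± 107 to 643 ± 74.5 normalised reads (SD, n = 3; log2 change -0.50, SE 0.12, limma adjusted p 0.0287). Of the 13 calls, 5 were lost when single libraries were left out. Without Runx1 KO replicate 2 the limma adjusted p was 0.141 for Peg12, 0.153 for Trappc9, 0.105 for Inpp5f, 0.0843 for H13 and 0.0509 for Zrsr1. Without Runx1 KO replicate 3 it was 0.0918, 0.147, 0.0966, 0.0607 and 0.0634 for the same genes. Without WT replicate 1 it was 0.0754 for Peg12, 0.0689 for Trappc9 and 0.0727 for Inpp5f. Without WT replicate 2 it was 0.0819 for Peg12, 0.0673 for Trappc9 and 0.0584 for Zrsr1, without WT replicate 3 it was 0.114 for Trappc9 and 0.0821 for Inpp5f, and without Runx1 KO replicate 1 it was 0.0535 for Peg12.

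**Figure D2:**
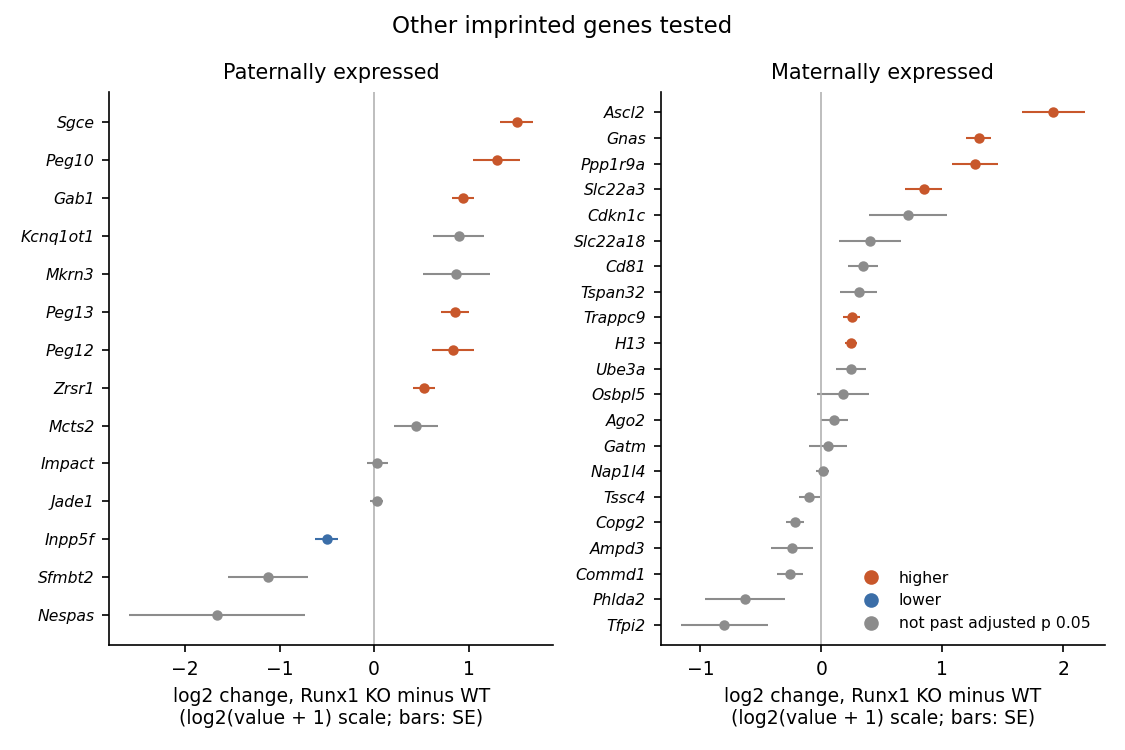
Log2 change from WT to Runx1 KO on the log2(value + 1) scale, with SE from limma (3 libraries a group), of the 35 tested imprinted genes that are not members. The panels divide them by the parental copy assigned in the list, as no allele was measured, and colour gives the call at an adjusted p of 0.05. Ascl2, at 1.92, and Sgce, at 1.51, lie farthest to the right, and Inpp5f, at -0.50, is the 1 gene called lower.

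The genes around Plagl1 were examined for a shift of the whole region. Of 16 annotated genes within 500 kb of either end, 10 had a row and 9 were tested. Ltv1, a ribosome assembly factor gene at 46.4 kb, had 2727 ± 154 against 2892 ± 46.7 normalised reads (SD, n = 3), and Sf3b5, a splicing factor gene at 51.3 kb, had 1631 ± 162 against 1598 ± 44.2. Neither passed (limma adjusted p 0.342 for Ltv1 and 0.853 for Sf3b5). Stx11, a syntaxin gene 96.2 kb before Plagl1, had 1780, 969.7 and 858 normalised reads under WT against 929, 714 and 776 and did not pass (limma adjusted p 0.207). The non-coding B230208H11Rik, 137 kb before it, fell from 169 ± 28.4 to 48.3 ± 26.1 (SD, n = 3; log2 change -1.89, SE 0.35, limma adjusted p 0.0122). Utrn, which encodes the cytoskeletal protein utrophin, rose by 0.44 on the log2 scale (SE 0.10, limma adjusted p 0.0192), and Fuca2, a fucosidase gene, fell by 0.31 (SE 0.07, limma adjusted p 0.0181). The other 3 tested genes, Phactr2, Pex3 and Adat2, did not pass (limma adjusted p 0.622, 0.323 and 0.765). The log2 changes of the 9 tested neighbours lay between -1.89 and 0.44, against 3.57 for Plagl1. Without Runx1 KO replicate 2 the limma adjusted p of Utrn was 0.0689 and that of Fuca2 0.0805. Without WT replicates 2 or 3 that of Utrn was 0.0618 or 0.0598, and without Runx1 KO replicate 3 that of Fuca2 was 0.0685.

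**Figure D3:**
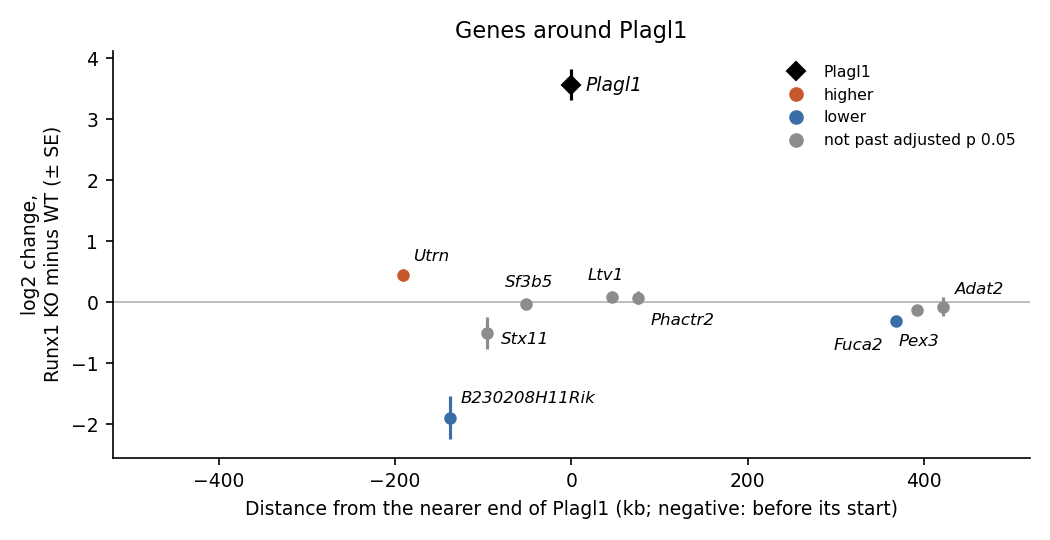
Log2 change from WT to Runx1 KO (± SE from limma, 3 libraries a group) of Plagl1 and its 9 tested neighbours against their distance in kb from the nearer end of Plagl1. Plagl1 stands at 3.57, while Ltv1, Sf3b5 and Phactr2, the nearest genes, lie between -0.025 and 0.086.

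Plagl1 has relatives in Plag1 and Plagl2, zinc finger genes of the same family that are not imprinted and promote growth. Plag1 had 53.4, 47.4 and 59.5 normalised reads under WT and 70.1, 80.3 and 63.7 under Runx1 KO. These groups did not overlap, but the gene did not pass (log2 change 0.41, SE 0.19, limma adjusted p 0.154). Plagl2 was expressed at 3221 ± 307 and 3315 ± 388 normalised reads (SD, n = 3), with overlapping groups (limma adjusted p 0.82).

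The 5 tested genes whose centred log2 profile over the 6 libraries was nearest to that of Plagl1 were Fbxl13, C4b, Hmga2, Ptprm and Hunk. Their root mean square differences from Plagl1 were 0.32, 0.33, 0.35, 0.38 and 0.42 on the log2 scale, against a median of 1.81 over the tested genes. None of the 5 is an imprinted gene of the lists used. Fbxl13, an F-box protein gene, had 12.9, 30.3 and 26.9 normalised reads under WT and 210.3, 165 and 219 under Runx1 KO. Hmga2, a chromatin protein gene of fetal stem cells, had 121, 120.1 and 153 against 1609.9, 1412 and 1270.0. C4b, a complement component gene that may share reads with its close relative C4a, had 119, 277 and 95.0 against 1864, 2185 and 2459. As these genes were picked for their likeness over the same libraries, their values are a description.

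**Figure D4:**
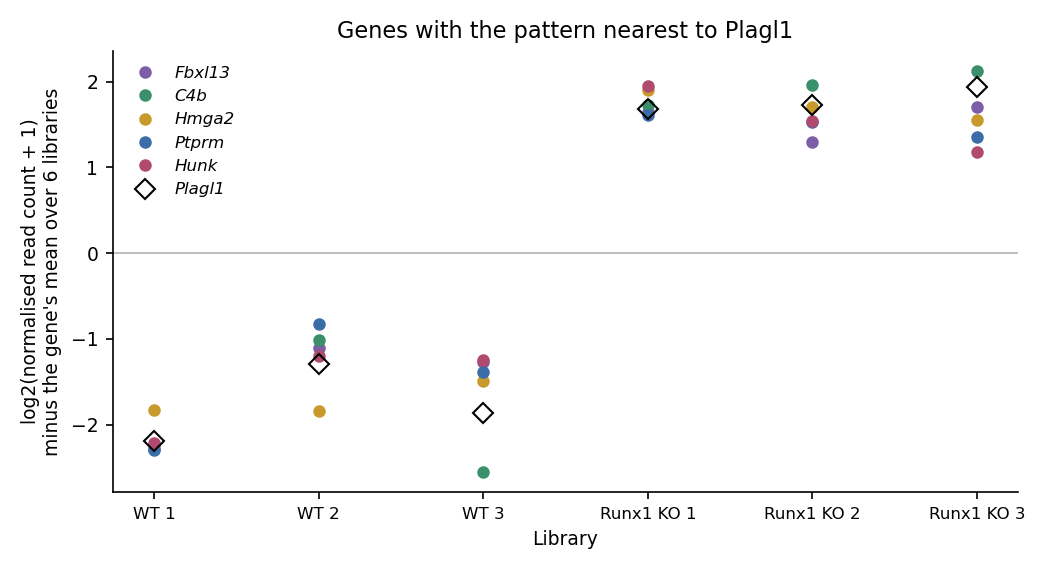
Log2(normalised read count + 1) minus the mean of each gene over the 6 libraries, for Plagl1 and the 5 genes with the nearest profile, by library. All 6 genes lie below 0 in the 3 WT libraries and above 0 in the 3 Runx1 KO libraries.

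Because Igf2r and Grb10 act on insulin-like growth factor signalling, 19 further genes of that axis were examined, of which 15 had a row and 12 were tested. Limma called 2 higher and 4 lower, and 6 did not pass, beside 10.6% and 11.3% of all tested genes. The median log2 change of the 12 was -0.09. As this list too was chosen with earlier results of these data known, nothing is read from its counts. The main receptors moved little: Insr, the insulin receptor gene, rose from 1925 ± 153 to 2419 ± 130 normalised reads (SD, n = 3; log2 change 0.33, SE 0.08, limma adjusted p 0.0263), and Igf1r had 4218 ± 383 against 4061 ± 621 (limma adjusted p 0.744). The ligand gene Igf1 had 249, 426 and 402 normalised reads under WT and 288, 275 and 458 under Runx1 KO, with overlapping groups. Ins2 was not listed, so with Igf2 absent too Igf1 was the only ligand of the list with a row.

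Grb7 and Grb14, relatives of Grb10, were called lower, whereas Grb10 was called higher, a call lost in 4 of the fits without a library. Grb7 had 22.8, 13.1 and 19.2 normalised reads under WT and 2.09, 0.99 and 0.99 under Runx1 KO, where no library exceeded 2 reads (limma adjusted p 0.00344). Grb14 had 90.02, 54.5 and 42.2 against 14.6, 1.98 and 1.99 (log2 change -3.54, SE 0.68, limma adjusted p 0.0134). In both genes the groups did not overlap. Grb14 reached the minimum of the filter in 3 WT libraries and 1 Runx1 KO library, and Grb7 in 3 WT libraries only. Irs1, an adaptor of the receptors, was left out by the filter, with 92, 6 and 11 reads under WT and 0 in every library labelled Runx1 KO. WT replicate 1, its highest library, also had the highest B-lymphoid marker sum, and that part was not tested.

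The binding proteins, which hold the growth factors outside the cell, were divided. Igfbp4, by far the most abundant, rose from 12109.8 ± 703 to 14651 ± 592 normalised reads (SD, n = 3; log2 change 0.28, SE 0.06, limma adjusted p 0.0254). Igfbp5 fell, with 97.9, 339 and 140.0 under WT and 45.0, 13.9 and 16.9 under Runx1 KO (log2 change -2.87, SE 0.57, limma adjusted p 0.0149). Igfbp7 fell from 35.7 ± 8.99 to 11.4 ± 5.48 (SD, n = 3; log2 change -1.63, SE 0.40, limma adjusted p 0.0286). The summed level of the 7 listed stromal markers was 1242, 1425 and 1190 under WT and 501, 626 and 477 under Runx1 KO. Cxcl12, a chemokine gene and 1 of these 7 markers, had 184, 506 and 318 under WT and 64.9, 31.7 and 28.8 under Runx1 KO. It was named after its values were seen and does not stand for the other markers. Igfbp5 and the stromal marker sum were both highest in WT replicate 2. Under Runx1 KO Igfbp5 was highest in replicate 1 and the sum in replicate 2. The part of stromal cells was not tested. Igfbp7 also shares 85 bases with Polr2b on the other strand. Of the 6 calls only that of Grb7 was kept in each of the alternative fits that tested the gene, 12 of 13, since it fell under the mean of at least 25. Grb7 had passed the filter only through WT, the group in which it was higher. Without Runx1 KO replicate 2 only 1 gene of the axis passed, and the limma adjusted p was 0.106 for Insr, 0.0522 for Grb14, 0.103 for Igfbp4, 0.0588 for Igfbp5 and 0.0718 for Igfbp7. Without WT replicate 3, 3 genes passed, with 0.0675 for Insr, 0.0742 for Igfbp4 and 0.0843 for Igfbp7. Without Runx1 KO replicate 3, 3 genes passed, with 0.0841 for Insr and 0.0529 for Igfbp4 and Igfbp5. The limma adjusted p was 0.0671 for Insr and 0.0635 for Igfbp7 without WT replicate 2, 0.0707 for Igfbp4 and 0.0558 for Igfbp7 without WT replicate 1, and 0.0503 for Igfbp4 without Runx1 KO replicate 1.

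Of 14 genes that set or keep imprints, 13 were tested, 2 were called higher and 0 lower, beside 10.6% and 11.3% of all tested genes. At an unadjusted p under 0.05 stood 7 of the 13 and 37.7% of all tested genes. Nothing is read from these counts either, for the same reason as with the other lists. Dnmt3a, a methyltransferase that writes new methylation, rose from 2949 ± 96.1 to 3529 ± 136 normalised reads (SD, n = 3; log2 change 0.26, SE 0.06, limma adjusted p 0.0208). Tet1, an enzyme that oxidises methylated cytosine, rose from 651 ± 119 to 995.8 ± 27.6 (log2 change 0.63, SE 0.13, limma adjusted p 0.0179). Dnmt1, which copies methylation at replication, had 17321 ± 1374 against 16823 ± 1304 and did not pass (limma adjusted p 0.749). Trim28, the corepressor recruited to imprinted control regions, had 13386 ± 730 against 13565 ± 422 (limma adjusted p 0.84). Zfp57, which recruits it there, was barely detected, with 6.92 to 16.3 normalised reads over the 6 libraries. Neither rise was called without Runx1 KO replicate 2 (limma adjusted p 0.0961 for Dnmt3a and 0.0721 for Tet1) or without Runx1 KO replicate 3 (0.0708 and 0.0529). Dnmt3a was also lost without WT replicate 1 (0.0502) or 2 (0.0599), and Tet1 without WT replicate 3 (0.0515).

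**Figure D5:**
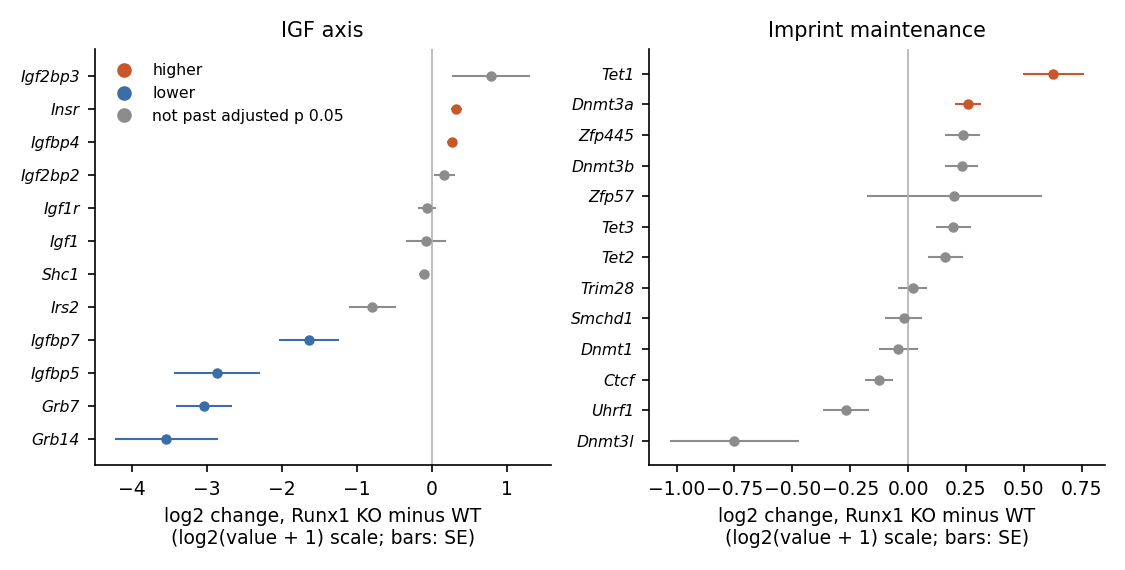
Log2 change from WT to Runx1 KO on the log2(value + 1) scale, with SE from limma (3 libraries a group), of the 12 tested genes of the insulin-like growth factor axis and the 13 tested genes of imprint maintenance; the panels have different axes. Grb14, at -3.54, Grb7 and Igfbp5 lie farthest to the left, and Tet1, at 0.63, is the highest of the second panel.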

How the data were processed

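RNA of 3 WT and 3 Runx1 KO samples was sequenced from poly-A libraries made with a stranded kit. The submitters' processing notes name HISAT2, HTSeq 0.9.1 and the builds mm10 and GRCm38; the use of strand, the annotation and the normalisation are not given in the sources used here. The deposited values are a signal: per the values in the files, 100% of each are whole multiples (tolerance 0.001) of the smallest positive value, and its reciprocal equals the size factor that DESeq2 1.42.0 gives, so read numbers in the text are these multiples. In 4 libraries 1 read was worth within about 1% of 1 normalised read, too near 1 for a check of whole-read recovery to accept, and the planned count tests (edgeR, DESeq2 and limma-voom) are therefore not used here. The scalings by library totals and TMM and the simulated data did use these multiples. The members, gene lists and tests were chosen with earlier results of these data known.

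The main test was limma 3.58.1 (lmFit, eBayes with trend, two-sided) on log2(value + 1), a pseudocount of 1, with the group as the only term and Benjamini-Hochberg adjustment over 15410 genes that passed filterByExpr of edgeR 4.0.16 (minimum count 10, minimum total 15); 4687 were left out. Genes passed at an adjusted p of 0.05. An exact permutation test of 3 against 3 has 0.1 as its smallest two-sided p and was not run. Named genes were the members, Runx1, the PLAG family, genes of the lists past the threshold, genes within 500 kb of Plagl1 and the 5 nearest profiles; others were named after their values were seen. Symbols came from a table of Ensembl identifiers (20077 of 20097 matched) and positions from GENCODE M21 (20090 matched). The fit was tested on simulated data with the same spread setting for every gene, which cannot show how calls depend on single libraries. Alternatives were a replicate block, pseudocounts of 0.5 and 5, no filter or a mean of at least 25, scaling by library totals or TMM, and leaving out each library.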

Additional observations from a re-analysis of the deposited data

How the results depend on the processing

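The planned count tests are not used, for the reason given with the processing. With all libraries kept, between 3187 and 3843 genes were called across 7 alternatives (3370 as reported). Members called lower numbered 2 with the replicate block, where Igf2r passed, and 0 with a mean of at least 25, which leaves Ndn untested. Other imprinted genes called lower numbered 2 with no filter and 0 with library totals, and imprint maintenance genes called numbered 5 with library totals, a scaling that moved the median log2 change of all genes to 0.078. Leaving out each library gave 1349 to 3551 genes called, the fewest without Runx1 KO replicate 2, 1 to 2 members called higher and 0 to 2 lower, 8 to 14 other imprinted genes called higher and 0 to 1 lower, 1 to 5 genes of the growth factor axis, 0 to 4 of imprint maintenance and 1 to 3 neighbours of Plagl1; each of these fits has 1 library fewer. The sign of 3 uncalled genes turned: Plagl2 lay between -0.021 and 0.14 without a library, Sf3b5 between -0.11 and 0.023 and at 0.057 with library totals, and Adat2 between -0.17 and 0.065 and at 0.011 with library totals. The replicate numbers may or may not pair the libraries, and the values do not settle it. After the group mean was taken from each library, libraries of equal number correlated at 0.287, 0.129 and -0.010. Libraries of unequal number correlated at -0.285 to 0.235, the highest being WT replicate 2 with Runx1 KO replicate 3. With the replicate block 3843 genes were called, and Peg12 (limma adjusted p 0.0594) and Trappc9 (0.0601) were not. Trappc9 was not called with no filter (0.0579), nor Inpp5f with library totals (0.0508). Where genes had few reads, as Dlk1 and Ndn, depth limits the precision.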
